A study of Rattus norvegicus with 6 samples.

Results

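The genes described here are 35 members of the programme of ATF4, a transcription factor of the stress response to amino acid shortage and misfolded protein: 9 stress regulators, 19 cytosolic aminoacyl-tRNA synthetases and 7 amino acid transporters. They were named by function, and each was represented by the probe set that names that gene alone and has the highest mean over all 6 arrays. Of the 35, 34 were measured in this way, out of 18166 genes with such a probe set. Sesn2 had no probe set of its own and is not analysed here. The 34 had 1 probe set each, so no second probe set could be set beside it.

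The samples were cerebral arteries of male rats, and RNA from each was hybridised to an Affymetrix Gene ST array. One group of 3 arrays held arteries from rats 6 hours into a subarachnoid haemorrhage (SAH), which is bleeding over the surface of the brain, with the array numbers 1, 4 and 5. The other 3 arrays, with the numbers 6, 7 and 8, held arteries of rats given the sham operation, with no time after surgery in the labels. The labels name no strain, age, drug or transgene and do not say how the bleed was made, and they do not say that each array held another animal, so p-values reflect only how much these samples vary, which may be technical. The smooth muscle genes Myh11 and Tagln, which mark the arterial wall, read 12.51 to 13.04 and 13.43 to 13.63 over the 6 arrays, and the endothelial gene Tek, for the angiopoietin receptor, read 10.01 to 10.73.

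When eIF2, the factor that brings the initiator tRNA to the ribosome, is phosphorylated, most translation slows but the messenger RNA of Atf4 is translated more. The kinases that do this sense uncharged tRNA, unfolded protein in the endoplasmic reticulum, haem shortage or double-stranded RNA. ATF4 protein then pairs with C/EBP proteins on a composite DNA element in its target genes. These encode amino acid transporters, the enzymes that charge tRNAs and enzymes that make asparagine, serine and one-carbon units, along with Ddit3 and Trib3, which restrain or end the response. Since ATF4 is controlled largely at translation, the level of its messenger RNA is only one part of its activity, and no protein was measured here.

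All values below are log2 expression values after the authors' normalization, where a difference of 1 is a 2-fold difference. Each difference is the SAH mean less the sham mean, given with its standard error (SE) from limma, n = 3 in both groups. A gene was called at a limma adjusted p under 0.05, with Benjamini-Hochberg adjustment over 36495 probe sets. Among the 34 members 2 rose, Ddit3 and Wars1, none fell and 32 did not pass. The background over all genes was 1.29% called, made up of 0.963% higher and 0.330% lower, and among the 9305 genes at least as bright on average as the dimmest member it was 2.25%, 1.66% higher and 0.591% lower. In the same fit 18 members had an unadjusted p under 0.05 with the SAH arrays higher and 1 with them lower, where 8.16% and 10.5% of all genes did, and 11.2% and 16.8% of the bright genes. A second description does not use the model. For 19 of the 34 members all SAH arrays read above all sham arrays, and for 1 all read below, where 26.8% of all genes lay apart, 11.4% with SAH higher and 15.4% with SAH lower. Among the bright genes 37.8% lay apart, 14.0% higher and 23.8% lower. The difference was above 0 in 29 of the 34 members, in 47.3% of all genes and in 41.1% of the bright genes. The median difference was 0.34 over the 34 members and -0.01 over all genes.

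Among the regulators, Ddit3, which encodes the transcription factor CHOP (probe set 17828625), read 9.44, 9.55 and 9.56 on SAH arrays 1, 4 and 5 and 8.89, 8.81 and 8.82 on sham arrays 6, 7 and 8. Both groups were tight and the lowest SAH value lay 0.55 above the highest sham value. Ddit3 rose 1.60-fold (difference 0.68 ± 0.09 SE, limma adjusted p = 0.0342). The call held without SAH array 1 (limma adjusted p = 0.0274) and was lost when any of the other 5 arrays was left out, with limma adjusted p between 0.111 and 0.176 and differences of 0.66 to 0.70. With the mean level of neutrophil markers as a covariate the difference was 0.67 ± 0.13 and the limma adjusted p 0.169.

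Trib3, a pseudokinase gene induced by ATF4 and CHOP, read 8.21, 8.83 and 8.21 on SAH arrays 1, 4 and 5 and 7.54, 7.26 and 7.31 on sham arrays 6, 7 and 8. The groups did not overlap, and SAH array 4 stood above the other 2 SAH arrays. Its difference of 1.05 ± 0.19 was the largest among the regulators and did not pass (limma adjusted p = 0.0739). Chac1, for an enzyme that breaks down glutathione, read 9.16, 9.64 and 9.28 on the SAH arrays and 8.73, 8.34 and 8.79 on the sham arrays. Here too array 4 was the highest of the SAH arrays, and the difference was 0.74 ± 0.18 (limma adjusted p = 0.134).

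Atf4 itself read 11.95, 12.07 and 12.11 on the SAH arrays and 11.83, 11.65 and 11.87 on the sham arrays. These values lay apart by 0.07, with a difference of 0.26 ± 0.11 (limma adjusted p = 0.338). Atf5, a related transcription factor that is also controlled at translation, read 10.02 to 10.37 after SAH and 10.09 to 10.43 after sham (difference -0.07 ± 0.14). Nupr1, a small stress-induced chromatin protein gene, read 12.51 to 12.75 and 12.49 to 12.60 (0.06 ± 0.10). For these last genes the groups overlapped.

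Ddit4, which encodes the mTOR inhibitor REDD1, and Ppp1r15a, which encodes GADD34, the subunit that returns phosphorylated eIF2 to its active form, followed another pattern. Ddit4 read 9.66, 9.68 and 10.50 on SAH arrays 1, 4 and 5 and 9.22, 9.17 and 10.17 on sham arrays 6, 7 and 8. Ppp1r15a read 10.09, 10.22 and 10.76 on the SAH arrays and 9.67, 9.94 and 10.76 on the sham arrays. In both groups 1 array, SAH array 5 and sham array 8, stood above the others. The same arrays had the highest mean over 12 measured neutrophil markers of 13 listed, 9.72 on SAH array 5 and 9.22 on sham array 8, against 8.66 and 8.80 on SAH arrays 1 and 4 and 7.22 and 7.37 on sham arrays 6 and 7. In bulk arteries more cells of a type and more RNA per cell cannot be told apart. The marker mean also went partly with the group, so a fit with it as a covariate cannot separate neutrophils from SAH. The differences were 0.43 ± 0.34 for Ddit4 and 0.23 ± 0.31 for Ppp1r15a (limma adjusted p = 0.634 and 0.791). Adjusted for that marker mean, they were -0.21 ± 0.16 and -0.36 ± 0.13 (limma adjusted p = 0.774 and 0.490).

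**Figure D1:**
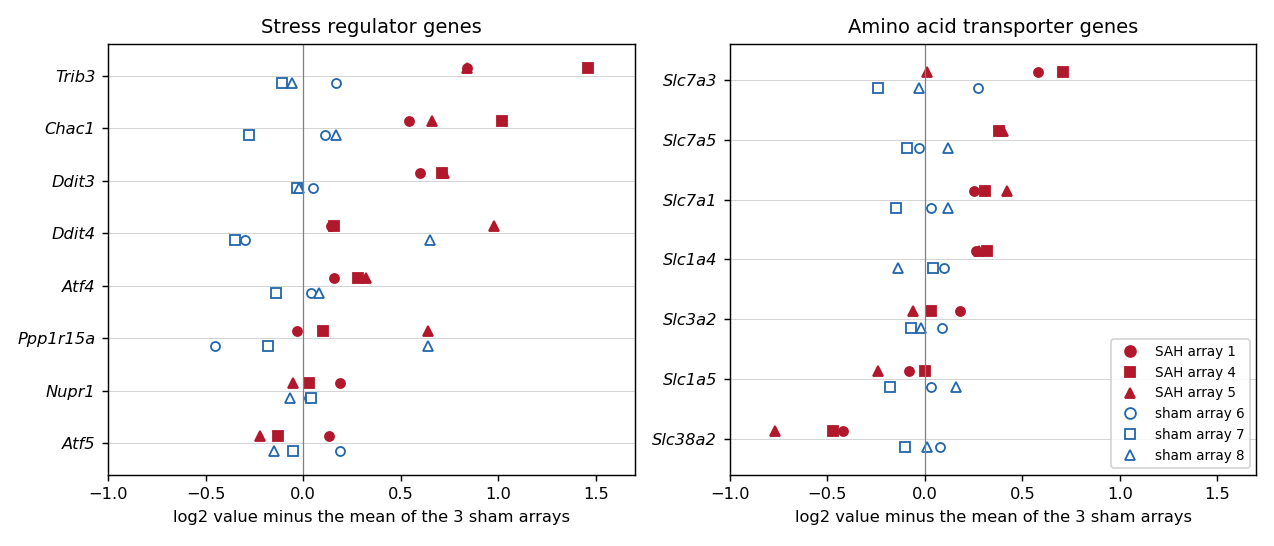
Log2 values of 8 stress regulator genes (left) and 7 amino acid transporter genes (right), each minus the mean of the 3 sham arrays of that gene, for every array (filled, SAH; open, sham). Trib3, Chac1, Ddit3 and Atf4 have all SAH arrays to the right of all sham arrays, while Ddit4 and Ppp1r15a are high on SAH array 5 and sham array 8 alike, and Slc38a2 has all SAH arrays to the left.

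The element bound by ATF4 with C/EBP proteins was looked for by its core letters, TGATGNAA on one strand or TTNCATCA on the other, where N is any base. The search covered RefSeq promoter windows of the GRCr8 assembly, from 250 bases before to 50 bases after each gene's start. A window was given for 30 of the 34 measured members, and 12 of these held the core. Of 14564 measured genes with a window, 438 held it, or 3.01%. The core stood in 3 of 8 regulators, 7 of 17 synthetases and 2 of 5 transporters. It stood in 2 of 19 windows of the other known ATF4 targets, of which 22 were measured. These 2 were Pycr1 and Fgf21, not the 4 targets that rose, Mthfd2, Psat1, Shmt2 and Asns. Some of the 22 had no window, which of them is not given here, and only 1 window per gene was searched. The lack of a match for the 4 therefore does not show that they lack the element. Of 15 windows of mitochondrial synthetase genes none held it. The members were chosen as genes of the ATF4 programme, so their share is not independent evidence of the element, and a match describes letters, not a bound site.

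The regulator sites are shown as 30 bases each, 5′ to 3′ on the gene's strand, with the core in capitals and positions counted from the start of the gene as 1, with the base before it as -1. The core stood in 2 of the 4 regulators whose SAH and sham values lay apart, Trib3 and Chac1, and in Nupr1, whose values overlapped.
Trib3, chr3:161275536-161275565, strand -, core from -21 to -14: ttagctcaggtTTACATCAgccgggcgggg
Chac1, chr3:126795953-126795982, strand +, core from -167 to -160: cttctccgccgTTGCATCActcctgctagg
Nupr1, chr1:190645938-190645967, strand -, core from -55 to -48: aaaaggccagaTTGCATCAgacagggcttg
Ddit3 and Atf4, the other regulators that lay apart, had no match. The 250 bases before the start of Ddit3 are shown since it is the regulator that passed the test.
Ddit3, chr7:65001445-65001694, strand +: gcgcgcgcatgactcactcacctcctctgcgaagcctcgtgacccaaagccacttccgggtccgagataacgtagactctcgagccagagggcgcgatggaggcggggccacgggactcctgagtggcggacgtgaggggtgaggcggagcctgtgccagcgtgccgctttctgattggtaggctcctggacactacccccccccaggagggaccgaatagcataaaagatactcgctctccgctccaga
The letters of the core are not in this window, which says nothing of sequence further out. A second motif, TGACGTNA, of the kind bound by CREB and ATF dimers, stood in 1 member, Ppp1r15a, and in 571 of the 14564 windows (3.92%). Ppp1r15a held no core of the ATF4 element.

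Synthetases join each amino acid to its tRNA, and the 19 genes here serve the cytosol, with Gars1 and Kars1 known to supply mitochondria as well. All SAH arrays read above all sham arrays for 12 of the 19 genes and below for none, against 11.4% and 15.4% of all genes. In 1 gene, Wars1, the difference passed the test, and in 10 more the unadjusted p was under 0.05 with SAH higher. Of all genes 0.963% were called higher, and 8.16% had an unadjusted p under 0.05 with SAH higher. The median difference was 0.35, the range -0.03 to 1.22, and 17 of 19 differences were above 0, against the 47.3% of all genes. Taken array by array relative to each gene's sham mean, the synthetase median was 0.33, 0.39 and 0.32 on SAH arrays 1, 4 and 5 and -0.02, -0.05 and 0.02 on sham arrays 6, 7 and 8. Adjusted for the mean of the neutrophil markers, the median was 0.34, with 18 of 19 differences above 0 and no call. Leaving out an array gave medians between 0.34 and 0.39 and 12 to 15 genes whose groups lay apart, while 14.1% to 18.9% of all genes did so with SAH higher.

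Wars1, the tryptophan enzyme (probe set 17824303), read 11.66, 12.07 and 12.23 on SAH arrays 1, 4 and 5 and 10.62, 10.96 and 10.71 on sham arrays 6, 7 and 8. The groups lay 0.70 apart, the widest gap of the 34 members. Wars1 rose 2.34-fold (difference 1.22 ± 0.17 SE, limma adjusted p = 0.0371). This call held without SAH array 1 (limma adjusted p = 0.0104) and was lost without any of the other 5 arrays (0.117 to 0.196, differences of 1.10 to 1.32) and with the neutrophil covariate (difference 1.15 ± 0.23, limma adjusted p = 0.203). Wars1 is known as a target of interferon gamma as well as of ATF4. Of 9 measured interferon response genes of 10 listed, 6 rose and none fell, against 0.963% and 0.330% of all genes. Their median difference was 2.15. All 9 read lowest on array 1 among the SAH arrays, as did Wars1. Of the 19 synthetases 8 read lowest on SAH array 1, 4 on array 4 and 7 on array 5. Of the 8 regulators 6 read lowest on array 1 and 2 on array 5, and of the 7 transporters 3 and 4. The share over all genes was not counted. The part of the interferon response in the difference of Wars1 was not tested. Without Wars1, the other 18 synthetases had a median difference of 0.35, and in 11 of them the groups lay apart with SAH higher.

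The window of Wars1 held neither the ATF4 element core nor the letters of an interferon-stimulated element, GAAA, any 2 bases and GAAA on either strand, which were searched after the values of Wars1 were known. Those letters stood in 498 of the 14564 windows (3.42%), in 5 of 7 interferon response genes with a window and in none of the 30 members. No other interferon motif was searched, and the window says nothing of sequence further out. The 250 bases before the start of Wars1 are shown since it had the largest difference of all members.
Wars1, chr6:133571646-133571895, strand -: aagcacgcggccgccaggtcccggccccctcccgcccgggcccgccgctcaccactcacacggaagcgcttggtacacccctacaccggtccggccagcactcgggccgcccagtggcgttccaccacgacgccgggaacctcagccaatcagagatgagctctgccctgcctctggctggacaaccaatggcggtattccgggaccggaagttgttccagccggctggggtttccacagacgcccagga

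Kars1, the lysine enzyme, read 11.37, 11.76 and 11.89 on SAH arrays 1, 4 and 5 and 10.76, 10.83 and 10.82 on sham arrays 6, 7 and 8. The groups lay 0.55 apart. Its difference of 0.87 ± 0.15, or 1.83-fold, did not pass (limma adjusted p = 0.0603), but it passed without SAH array 1 (difference 1.02 ± 0.10, limma adjusted p = 0.0106), with dim probe sets left out (0.0237), with trend and robust moderation (0.0365) and with array weights (0.0320). Rars1, the arginine enzyme, read 10.43, 11.12 and 11.09 on the SAH arrays and 10.02, 10.12 and 10.17 on the sham arrays. SAH array 1 stood nearer to the sham arrays than to the other SAH arrays in this gene. The difference was 0.78 ± 0.19 (limma adjusted p = 0.146) and, without SAH array 1, it was 1.00 ± 0.10 and passed (0.0112).

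Kars1 and Rars1 belong to the multi-synthetase complex, a particle that also holds the enzymes of Eprs1, Iars1, Lars1, Mars1 and Qars1 and 3 scaffold proteins. Eprs1, the joined enzyme for glutamate and proline, read 11.12, 11.17 and 11.11 after SAH and 10.75, 10.62 and 10.71 after sham (difference 0.44 ± 0.09, limma adjusted p = 0.0987). Lars1, for leucine, read 10.22, 10.34 and 10.23 against 9.89, 9.89 and 9.88 (0.38 ± 0.09, limma adjusted p = 0.135). Both lay apart between the groups with little spread within them. In Iars1, Mars1 and Qars1, for isoleucine, methionine and glutamine, the groups overlapped, with differences of 0.19 ± 0.11, 0.12 ± 0.09 and -0.01 ± 0.11. The scaffold genes Aimp1, Aimp2 and Eef1e1 differed by 0.19 ± 0.10, -0.10 ± 0.11 and 0.10 ± 0.13, and none passed. The genes of the complex described here thus had differences from -0.10 to 0.87.

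Of the synthetases outside the complex, 7 besides Wars1 lay apart between the groups. Yars1, for tyrosine, read 10.30 to 10.35 after SAH and 9.76 to 9.97 after sham (difference 0.46 ± 0.10). Tars1, for threonine, read 10.07 to 10.19 against 9.58 to 9.85 (0.47 ± 0.11), and Cars1, for cysteine, 9.51 to 9.73 against 9.01 to 9.34 (0.45 ± 0.13). Nars1, for asparagine, read 10.78 to 11.01 against 10.46 to 10.59, a difference of 0.42 ± 0.11. These 4 genes thus had differences between 0.42 and 0.47. For Aars1, for alanine, the difference was 0.35 ± 0.10, for Vars1, for valine, 0.34 ± 0.09, and for Gars1, for glycine, 0.31 ± 0.13. None of the 7 passed, with limma adjusted p from 0.103 for Yars1 to 0.355 for Gars1. The groups overlapped for Farsa and Farsb, the subunits of the phenylalanine enzyme (0.12 ± 0.16 and 0.05 ± 0.11), for Sars1, for serine (0.07 ± 0.11), and for Hars1, for histidine (-0.03 ± 0.10).

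**Figure D2:**
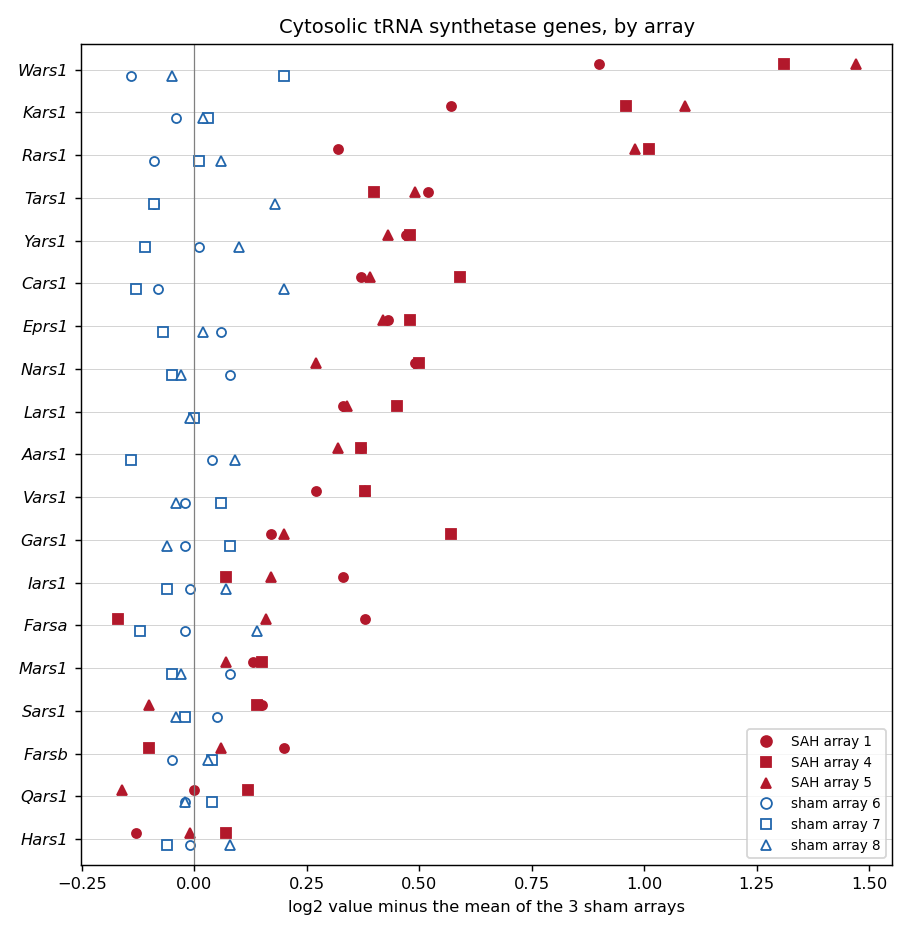
Log2 values of the 19 cytosolic synthetase genes, each minus the mean of the 3 sham arrays of that gene, for every array (filled, SAH; open, sham), ordered by difference. From Wars1 to Gars1 the SAH arrays lie to the right of the sham arrays in 12 genes, and SAH array 1 is the lowest SAH array in Wars1, Kars1 and Rars1.

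The synthetase sites of the ATF4 element core are shown, 1 for each of the 7 genes, since 7 of 17 windows of this group hold it. Sites with a positive position lie after the start. The line of Yars1 ends where its window ends.
Aars1, chr19:55908480-55908509, strand +, core from 10 to 17: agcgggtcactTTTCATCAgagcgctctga
Cars1, chr1:208225334-208225363, strand -, core from 18 to 25: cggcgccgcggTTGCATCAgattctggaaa
Iars1, chr17:15193658-15193687, strand -, core from -24 to -17: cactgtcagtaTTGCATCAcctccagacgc
Mars1, chr7:65023752-65023781, strand -, core from -17 to -10: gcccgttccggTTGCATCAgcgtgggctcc
Nars1, chr18:60275778-60275807, strand -, core from -14 to -7: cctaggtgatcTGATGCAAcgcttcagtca
Tars1, chr2:62114811-62114840, strand -, core from -27 to -20: ctggcgtcccgTTGCATCAgctggttagct
Yars1, chr5:146820190-146820212, strand +, core from 39 to 46: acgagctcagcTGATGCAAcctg
The 7 genes with the core had a median difference of 0.42, from 0.12 for Mars1 to 0.47 for Tars1, and 5 of them lay apart between the groups. In the 10 genes with a window and no match the median was 0.23, from -0.03 to 1.22, and 5 lay apart. All of these lay apart with SAH higher, as did 11.4% of all genes. Wars1 and Kars1, with the largest differences, were among those without a match. Rars1 and Gars1, which also lay apart between the groups, had no window and are in neither set. Whether the differences go with the element was not tested.

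**Figure D3:**
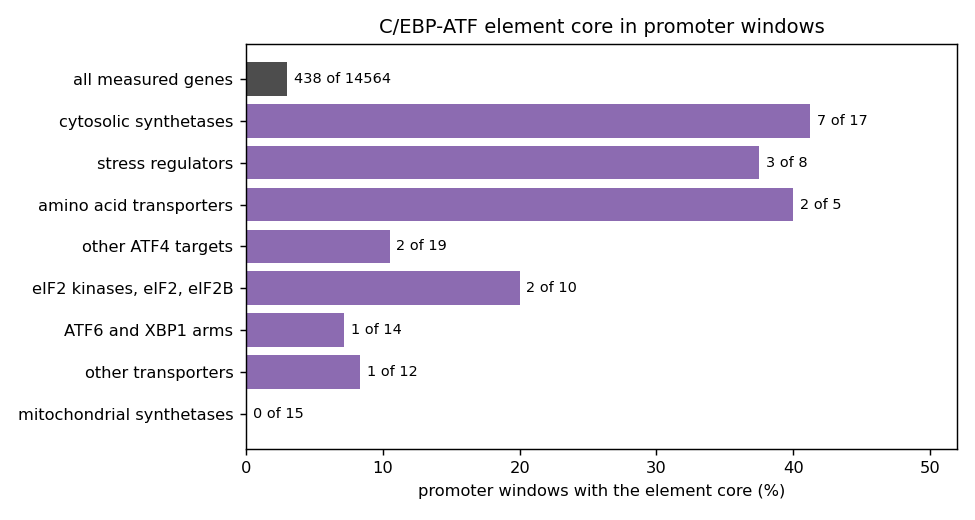
Share of promoter windows (percent) that hold the ATF4 element core, by gene list, with the number of windows behind each bar. Synthetases (7 of 17), regulators (3 of 8) and transporters (2 of 5) stand above all measured genes (438 of 14564), and mitochondrial synthetases have none in 15.

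Of the 7 transporters none passed the test, and differences lay on both sides of 0 (median 0.29). Slc7a5 encodes LAT1, which carries large neutral amino acids as a pair with the heavy chain encoded by Slc3a2. Slc7a5 read 12.36, 12.36 and 12.38 on SAH arrays 1, 4 and 5 and 11.95, 11.89 and 12.10 on sham arrays 6, 7 and 8. The SAH arrays differed little among themselves and lay 0.26 above the highest sham array, a difference of 0.39 ± 0.10 (limma adjusted p = 0.150). Slc3a2 read 12.67 to 12.91 after SAH and 12.66 to 12.82 after sham, and these overlapped (0.05 ± 0.11).

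Slc7a1, the cationic amino acid transporter that brings arginine and lysine into cells, read 10.40, 10.46 and 10.57 after SAH and 10.18, 10.00 and 10.27 after sham (difference 0.33 ± 0.11, limma adjusted p = 0.251). Slc1a4, which carries small neutral amino acids such as serine, read 9.91, 9.97 and 9.93 against 9.75, 9.69 and 9.51 (0.29 ± 0.10, limma adjusted p = 0.257). In both the groups lay apart. Slc7a3, a cationic transporter related to Slc7a1, read 8.94 to 9.64 against 8.69 to 9.20 (0.43 ± 0.22), and Slc1a5, the glutamine carrier ASCT2, 9.87 to 10.11 against 9.93 to 10.27 (-0.11 ± 0.13), with overlap in both.

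Slc38a2, which encodes the glutamine and alanine carrier SNAT2, stood lower after SAH. It read 11.73, 11.68 and 11.38 on SAH arrays 1, 4 and 5 and 12.23, 12.05 and 12.16 on sham arrays 6, 7 and 8. It was the 1 member of the 34 whose SAH arrays all read below all sham arrays, 1.46-fold lower, with a difference of -0.55 ± 0.13 (limma adjusted p = 0.123). The difference ran from -0.62 to -0.44 over 13 alternative settings, and none of these brought it past the threshold.

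The element core stood in the windows of Slc7a1 and Slc1a4, shown here since both genes stood higher on all SAH arrays.
Slc7a1, chr12:11664447-11664476, strand +, core from -30 to -23: cggcgcgcggcTGATGAAAccggctcggat
Slc1a4, chr14:98761779-98761808, strand -, core from -235 to -228: cgcctccagcgTTGCATCAtccagccagca
In Slc7a1 the open letter of the core is an A. The windows of Slc7a5, Slc38a2 and Slc3a2 held no match, where the first of the pair of windows of Slc3a2 in the table was used. Slc7a3 and Slc1a5 had no window in the table.

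The other genes of the pathway were described by lists chosen by function. Of 22 further known ATF4 targets 4 rose, none fell and 18 did not pass, with a median difference of 0.12. Of all genes 0.963% were called higher and 0.330% lower. In 5 of the 22 all SAH arrays read above all sham arrays and in 1 below, against 11.4% and 15.4% of all genes. Mthfd2, a mitochondrial enzyme of the folate cycle, read 10.54, 10.79 and 10.74 after SAH and 9.45, 8.91 and 9.30 after sham, and rose 2.77-fold (difference 1.47 ± 0.16, limma adjusted p = 0.0165). Psat1, of serine synthesis, read 10.01, 10.35 and 9.64 against 8.67, 8.64 and 8.73 and rose 2.50-fold (1.32 ± 0.18, limma adjusted p = 0.0342). Each lay well apart between the groups. Shmt2, which splits serine in mitochondria to feed the folate cycle, rose 1.63-fold (0.70 ± 0.10, limma adjusted p = 0.0359) and Asns, asparagine synthetase, 1.58-fold (0.66 ± 0.10, limma adjusted p = 0.0478). The number that passed was 3 after repeated quantile normalization, 3 with array medians taken off, 0 with the neutrophil covariate, and 3, 0, 1, 0, 1 and 0 without SAH array 1, 4 and 5 and sham array 6, 7 and 8.

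Other genes of the same steps did not pass. Phgdh and Psph, the enzymes before and after Psat1 in serine synthesis, differed by 0.17 ± 0.13 and 0.09 ± 0.10, and Aldh1l2 and Mthfd1l, of mitochondrial folate metabolism, by 0.49 ± 0.22 and 0.25 ± 0.15. Slc7a11, the cystine carrier, read 12.22, 11.94 and 11.09 on SAH arrays 1, 4 and 5 and 12.63, 12.27 and 12.59 on sham arrays 6, 7 and 8. It was thus lower on all SAH arrays, with the lowest value on array 5, and differed by -0.75 ± 0.29 (limma adjusted p = 0.298). Atf3, a transcription factor induced by many stresses, read 9.90, 10.68 and 11.12 against 10.07, 10.05 and 11.02, with overlap and with high values on SAH array 5 and sham array 8, as for Ddit4.

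**Figure D4:**
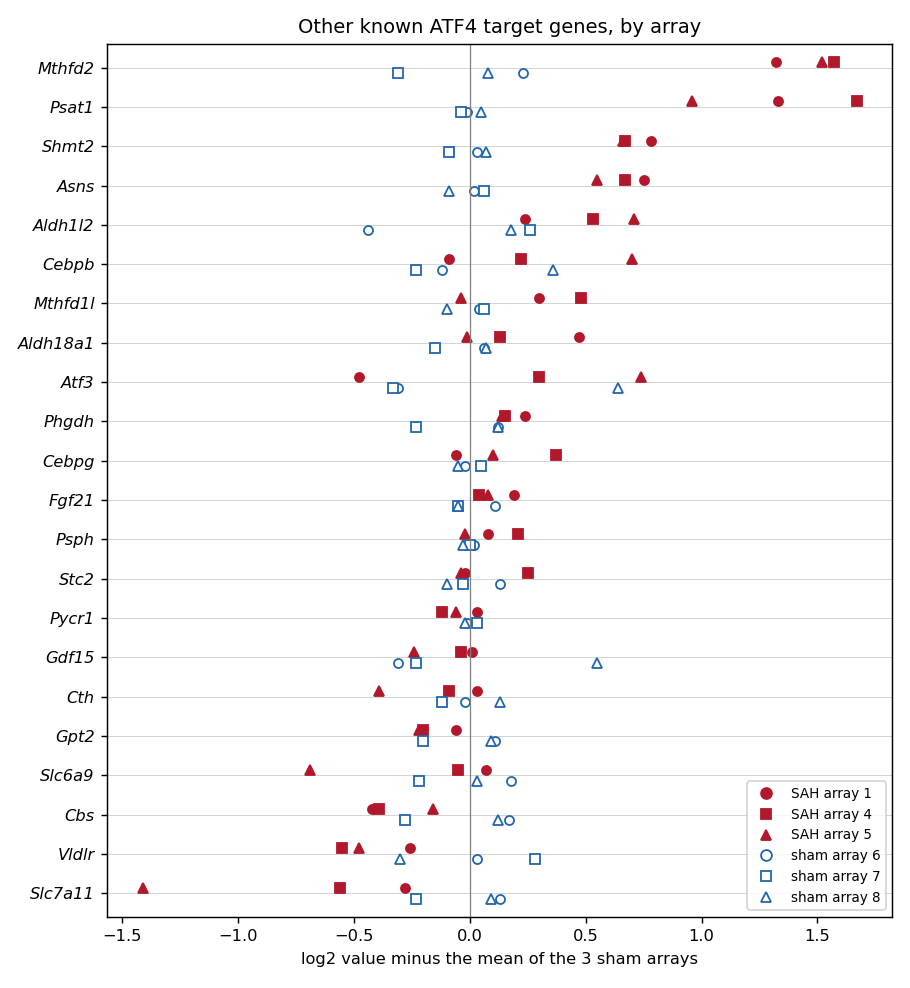
Log2 values of 22 other known ATF4 target genes, each minus the mean of the 3 sham arrays of that gene, for every array (filled, SAH; open, sham), ordered by difference. Mthfd2, Psat1, Shmt2 and Asns have all SAH arrays to the right of all sham arrays, and most of the genes under Aldh1l2 have values that overlap between the groups.

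Among the genes upstream, 10 of 13 listed for eIF2 kinases, eIF2 and its exchange factor eIF2B were measured and none passed (median difference 0.01). Eif2ak1, the kinase HRI that responds to haem shortage, read 9.98, 10.15 and 10.15 after SAH and 9.71, 9.74 and 9.69 after sham (difference 0.38 ± 0.10, limma adjusted p = 0.148). The kinases PERK and GCN2, encoded by Eif2ak3 and Eif2ak4, differed by 0.04 ± 0.14 and -0.11 ± 0.11, with overlap. Eif2ak2, the kinase PKR and a known interferon target, is not analysed here, since no probe set named only that gene. Kinase activity is set by the protein and was not measured.

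The ATF6 and XBP1 arms of the unfolded protein response, which raise chaperones of the endoplasmic reticulum, were also described. None of 18 genes passed, and the median difference was -0.09. Hspa5, the chaperone BiP, differed by 0.06 ± 0.11, Xbp1 by 0.22 ± 0.12, Hsp90b1 by -0.21 ± 0.12 and Dnajb9 by 0.24 ± 0.19, and Atf6 itself by 0.45 ± 0.10 (limma adjusted p = 0.118). In Atf6 alone did all SAH arrays read above all sham arrays, and Hyou1, a chaperone gene, was the 1 gene with all below, at -0.24 ± 0.11. Of all genes 11.4% lay apart with SAH higher and 15.4% with SAH lower, so 1 of 18 each way was no more than the background.

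Of 15 measured mitochondrial synthetase genes of 17 listed, none passed and the median difference was -0.07, with 6 differences above 0. Mars2 stood higher, at 8.87, 8.74 and 8.82 against 8.24, 8.32 and 8.38 (difference 0.49 ± 0.09, limma adjusted p = 0.0829), and Cars2 lower, at 7.77, 7.39 and 7.35 against 8.22, 8.02 and 8.00 (-0.58 ± 0.14, limma adjusted p = 0.142). In 3 of the 15 genes the groups lay apart with SAH higher and in 1 with SAH lower, against 11.4% and 15.4% of all genes. Of their cytosolic partners, Mars1 differed by 0.12 ± 0.09 and Cars1 by 0.45 ± 0.13. Of 14 other amino acid transporters none passed, with a median of -0.04. In 2 of them all SAH arrays read below all sham arrays, against 15.4% of all genes, and in none above. These were Slc36a4, a carrier of lysosome and cell membranes (-0.59 ± 0.12, limma adjusted p = 0.0956), and Slc7a7 (-0.51 ± 0.16, limma adjusted p = 0.220).

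Glucocorticoid targets and p53 targets were set beside Ddit4 and the other stress genes, since Ddit4 answers to both. None of 9 glucocorticoid targets passed (median 0.28), with Per1 at 1.00 ± 0.39 and Fkbp5 at 0.42 ± 0.30. All 9 differences were above 0, against 47.3% of all genes. In 2 of the 9 the groups lay apart with SAH higher, against 11.4% of all genes. None of 7 measured p53 targets passed either (median 0.22), with Cdkn1a at 0.54 ± 0.32 and Sesn1, a relative of Sesn2, at -0.96 ± 0.20 (limma adjusted p = 0.101). Over the marker lists, smooth muscle genes had a median of -0.26 with all 5 lower on every SAH array, against 15.4% of all genes. Endothelial genes had a median of -0.29, from -0.76 to 0.61, with 1 difference above 0 and 4 below. Monocyte and macrophage genes had a median of 0.29, from -1.29 to 1.86, with 6 above 0 and 4 below. The medians were 0.11 for T and B lymphocyte genes, 0.34 for erythroid, -0.05 for neuronal and 0.08 for astrocyte and oligodendrocyte genes. They were -0.17 for fibroblast genes and 1.36 for neutrophil genes. In these marker lists the smooth muscle gene Smtn was the 1 gene that passed, and it fell (-1.18 ± 0.13, limma adjusted p = 0.0197). Of all genes 0.330% were called lower. The part of these cell types in the synthetase differences was not tested. The neutrophil covariate above cannot test it, since the marker mean went partly with the group.

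**Figure D5:**
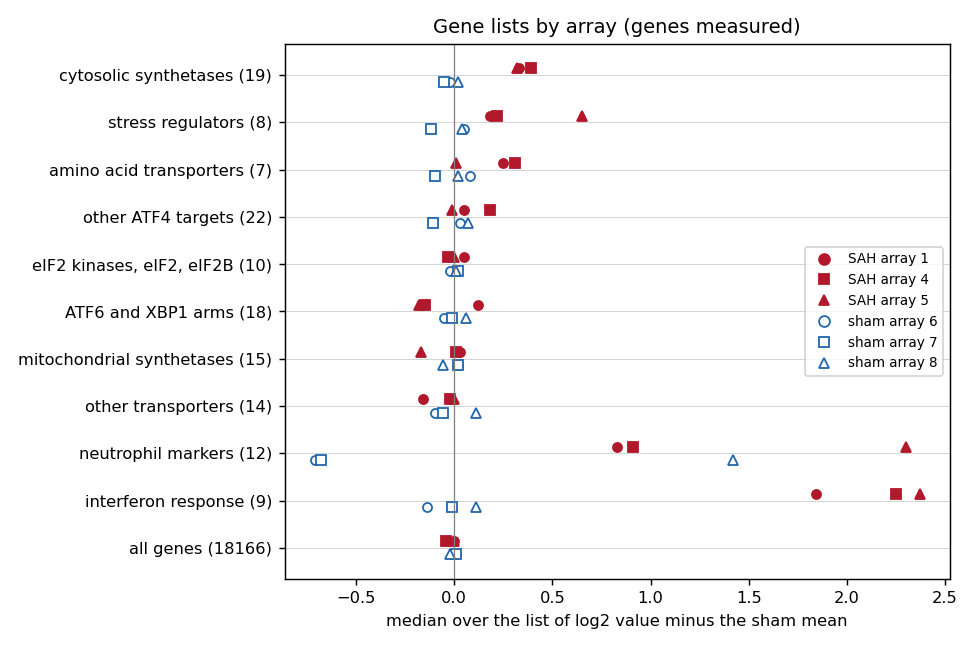
Median over each gene list of the log2 value minus the sham mean of each gene, for every array (filled, SAH; open, sham), with the number of genes measured in brackets. The synthetase medians lie at 0.32 to 0.39 on the SAH arrays and near 0 on the sham arrays, while neutrophil markers are high on SAH array 5 and sham array 8 and the interferon medians lie between 1.84 and 2.37 on the SAH arrays.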

How the data were processed

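RNA of 6 arrays, 3 SAH and 3 sham, was measured. The deposited values are log2 expression values, made by the authors with Affymetrix Expression Console 1.1.2 and RMA, per the submitters' processing notes; settings, and the build behind the array annotation, were not given in the sources used here. They were used as deposited. RMA equalizes the arrays, so a general change in RNA amount cannot be seen, and it compresses differences of dim and very bright genes. The array medians lay between 7.31 and 7.37.

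Of 36685 probe sets, 190 controls were set aside. GEO's platform annotation, updated through the RefSeq gene table, gave 1 gene for 18511, several for 575 and none for 17409. Groups were compared with limma 3.58.1 (R 4.3.3, lmFit and eBayes, two-sided), and the fit was tested on simulated data. The members, lists and alternatives were chosen with earlier results of these data known. The rule for names took all members and, of each companion list, the genes past the threshold and up to 4 with the smallest p. Other list genes, such as Phgdh, Psph, Atf3, Hspa5 and Cdkn1a, were named by function after their values were seen. Alternatives were other normalization, filters, moderation, weights and thresholds, a neutrophil covariate and each array left out. Promoter sequences are RefSeq's; 1 site is not reported here. The number of arrays limits the precision.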

Additional observations from a re-analysis of the deposited data

How the results depend on the processing

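The medians of the synthetases (0.34 to 0.39) and of the transporters (0.21 to 0.34) stayed within 1 SD of the spread between arrays in every setting run. The median of the regulators was 0.16 with the neutrophil covariate and ran from 0.19 to 0.61 when an array was left out, the highest without sham array 8. Calls depended more on the setting. Over all probe sets 295 were called, against 853 with dim probe sets left out, 458 with trend and robust moderation, 479 with array weights, 716 at an adjusted p under 0.10, 30 with the neutrophil covariate and 41 to 929 when an array was left out. Called synthetases numbered 1, against 4, 2, 2, 3, 0 and 0 to 3 in the same order, and called regulators 1, against 2 with dim probe sets left out, 2 at an adjusted p under 0.10, 0 with the covariate and 0 to 1 without an array. No transporter was called in any setting. With dim probe sets left out, Trib3, Kars1, Eprs1 and Yars1 joined the calls (fewer probe sets were tested). Repeated quantile normalization and subtracted array medians changed no member's call. A mean over a gene's probe sets changed none either, but it cannot alter the values of members, which have 1 probe set each. Of members named above, Atf5, Ddit4, Nupr1, Ppp1r15a, Farsa, Farsb, Hars1, Qars1 and Slc3a2 changed sign in 1 to 3 of 13 settings, none of them called. No paired analysis was possible because the groups share no array numbers. Other causes were not tested.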
